A study of Mus musculus with 79 samples.

Results

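Alu intervals are short stretches of the mouse genome that carry the repeat name Alu, which in rodents is the B1 family of short interspersed elements (SINEs). Among the 205981 intervals for which reads were counted, 54592 (26.5%) had the element name Alu alone, and these were taken by name, without use of any read count. RNA was sequenced from lumbar dorsal root ganglia (DRG), where the sensory neurons of the sciatic nerve have their cell bodies, of mice of the BAC-TRAP BR145-GFP line. Every group shares this line. The IP libraries hold RNA captured on magnetic beads through chicken anti-GFP, and come from mice whose sciatic nerves were crushed on both sides 1 h (5 libraries), 12 h (6), 24 h (4), 48 h (6), 72 h (7) or 7 d (4) earlier, and from naive mice (7). The Input libraries hold total RNA, with the same numbers except for 5 libraries of 24 h. The labels do not give the age or sex of the mice, do not say which cells carry the tagged protein, and do not state whether every library is a separate animal. The p-values therefore reflect spread among libraries, which may be technical.

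B1 elements descend from 7SL RNA, the RNA scaffold of the signal recognition particle that guides secreted proteins to the endoplasmic reticulum. They carry an internal promoter of RNA polymerase III, so a copy can be transcribed on its own. Most copies, however, sit in introns, 3' untranslated regions or intergenic sequence and are also read as passengers of RNA polymerase II transcripts. B2 elements are the other abundant rodent SINE family, derive from a transfer RNA, and are known from other tissues to rise under heat shock and other stress.

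To show what a counted Alu interval looks like, sequence was taken from the RefSeq promoter windows (GRCm38.p6), which run from 250 bases before to 50 after the start of each gene. Of the 54592 intervals 30 lay in such a window, in 29 windows, and the centres of 23 lay upstream of the start site. The 6 with the most reads are printed along the gene, with the bases of the interval in capitals and up to 30 flanking bases in lower case. In these lines the start is 1 above the deposited start, which was read as counted from 0; elsewhere positions are as deposited.
Eef2k (chr7:120842588-120842612, plus strand): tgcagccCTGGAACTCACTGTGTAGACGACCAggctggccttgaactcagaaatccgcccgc
Gm14051 (chr2:132143452-132143476, plus strand): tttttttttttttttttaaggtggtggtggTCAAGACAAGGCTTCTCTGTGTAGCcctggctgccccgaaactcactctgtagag
Gm46183 (chr10:121805153-121805177, plus strand): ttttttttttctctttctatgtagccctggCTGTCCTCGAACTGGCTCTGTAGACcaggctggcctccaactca
Lipe (chr7:25396194-25396218, minus strand): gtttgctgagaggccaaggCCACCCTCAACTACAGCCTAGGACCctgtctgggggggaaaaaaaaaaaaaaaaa
Gm20045 (chr1:171327514-171327538, minus strand): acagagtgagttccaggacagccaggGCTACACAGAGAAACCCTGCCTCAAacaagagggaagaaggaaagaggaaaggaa
Gm52878 (chr6:125196683-125196707, plus strand): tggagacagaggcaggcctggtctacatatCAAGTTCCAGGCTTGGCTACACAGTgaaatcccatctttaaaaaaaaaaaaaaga
The 6 intervals held 4323, 859, 354, 278, 257 and 247 reads over all libraries, in the order printed. Their centres lay at -231, -115, 18, -219, -212 and -39 bases from the start site of the gene. The intervals are far shorter than a full B1 element: 97.6% spanned 25 bases and the range was 13 to 70.

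Reads were spread very unevenly over these intervals. Of the 54592 intervals 295 had no read in any library, the median was 48 reads over the 79 libraries, and 405 were detected in every library. A library detected 12343 to 33575 Alu intervals in IP and 8294 to 18997 in Input. In all, 12434779 reads fell on Alu intervals, 0.838% of all interval reads, and 3.53% once intervals named for ribosomal RNA (76.2% of the reads) were set aside. A single interval at chr13:34355312-34355337 (positions as deposited, build GRCm38) took 4706264 of these reads, or 37.8%, while the next, in Tmem234, took 34656. It lies outside the annotated gene spans, 10037 bp from Slc22a23, a solute carrier family gene. Sums over time are therefore given with and without it, a choice made after its share was seen. Without it, the 100 most-read intervals held 15.3% of the Alu reads and the 5000 most-read 61.5%.

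By position, 33921 Alu intervals (62.1%) lay within the span of at least 1 gene, in 12316 host genes, and 1729 lay in several spans. Intervals in the last 2 kb of a span, where 3' untranslated regions commonly lie, were 2.08% of the intervals (1134) but took 15.7% of the Alu reads without the most-read interval. Their median was 120.5 reads, against 59 in the rest of the spans of known strand. It was 32 for the 17938 intervals outside any span and not within 5 kb downstream of a gene of known strand. The rest of the spans of known strand took 48.0% of these reads with 47.5% of the intervals, and the 17938 intervals outside took 17.1% with 32.9%. A further 6872 intervals (12.6%, with 14.8% of these reads) lay in host genes whose strand was not available here. Their distance from a 3' end was not determined. Exons and introns within the spans could not be told apart here.

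The 8 Alu intervals of highest mean level are the most-read interval and 7 others at 29.2 to 33.6 CPM, the usual depth-scaled count, here relative to the gene table's library size after TMM scaling. The 4 in the last 2 kb of a gene were in Cd59a (chr2:104114948-104114973), which encodes an inhibitor of complement lysis, Tmem234 (chr4:129607831-129607856), a transmembrane protein gene, Lix1 (chr17:17459055-17459080) and Rangap1 (chr15:81704620-81704645), the activator of the Ran GTPase in nuclear transport. They lay 437, 677, 307 and 372 bp from the 3' end of the gene. The others were in Ankrd6 (chr4:32934556-32934581), 130529 bp from its 3' end, in Kif5b, a kinesin heavy chain of axonal transport, and 2158 bp outside Gal3st2 (chr1:93859161-93859186). The strand of Kif5b was not available here, so whether its interval also lies in the last 2 kb was not determined.

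Library composition differed strongly between fractions and times, and these values touch every Alu result. Gene counts per library were 3614942 to 16721527 in IP and 8737964 to 22221882 in Input. Rn45s, the ribosomal RNA precursor, and Lars2, a gene whose transcript includes sequence resembling rRNA, together took 1.37% to 75.1% of the gene counts in IP and 1.64% to 25.5% in Input, with 6 IP libraries above 50%. These 6 were all of 1 h, 12 h or 48 h. Summed CPM of 6 sensory neuron markers was 7290 in naive IP (5285 to 11190) and 7442 in naive Input (6280 to 8067), so the sums overlapped. The members went opposite ways: Nefh (3731 and 2422 CPM in IP and Input) and Scn10a (310.6 and 168.5) had higher means in IP, and Avil, Prph, Isl1 and Tubb3 lower ones. In naive IP the 5 nuclear noncoding RNAs Malat1, Neat1, Meg3, Kcnq1ot1 and Snhg11 summed to 58974 ± 11301 CPM, against 6304 ± 1662 CPM in naive Input (SD, n = 7 each). Olfactory receptor genes, known for odour detection in the nose, summed to 448 ± 434 CPM in naive IP and 17.8 ± 7.45 CPM in naive Input. Counts on Y-linked Ddx3y exceeded those on Xist in every 12 h library and in no 48 h library, and the other groups were mixed.

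**Figure D1:**
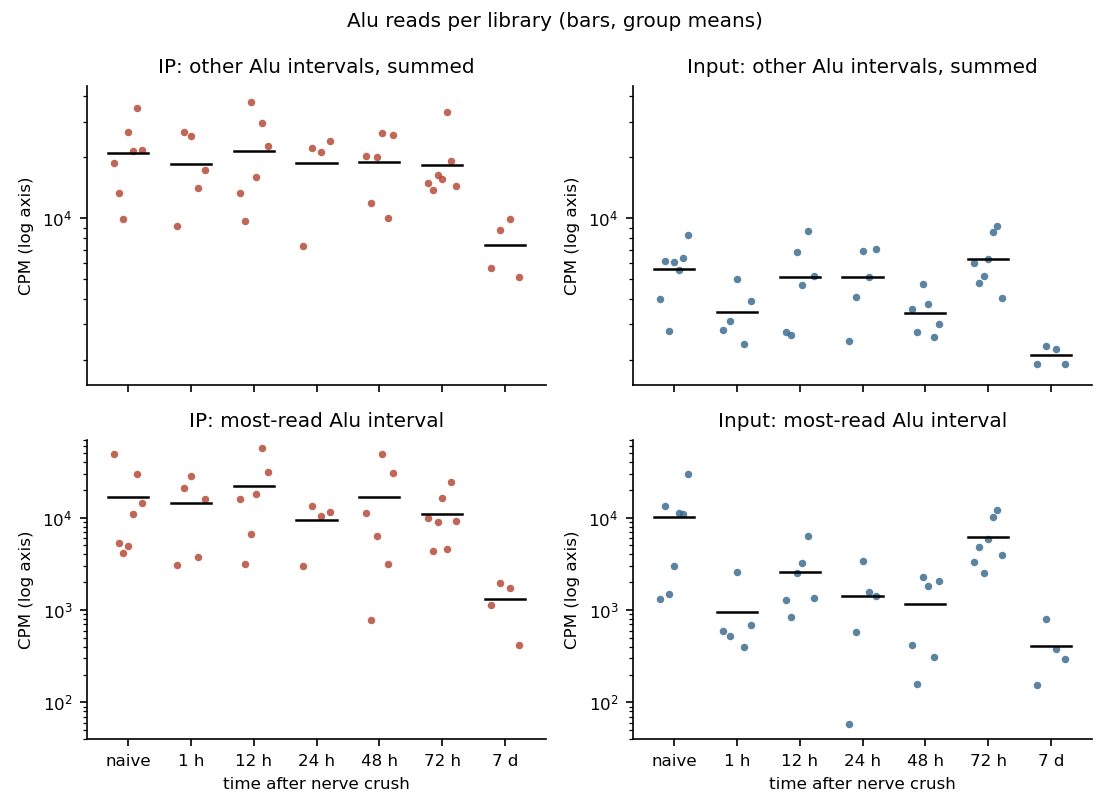
CPM (log axis) of the 54592 Alu intervals without the most-read one, summed, and of the most-read interval, for each library of IP and Input at each time; points are libraries and bars are group means. At 7 d the 4 IP libraries sit at 5149 to 9923 CPM and the 4 Input libraries at 1912 to 2337 CPM in the summed panels, below every naive library of their fraction.

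Alu reads other than those of the most-read interval were more abundant in IP than in Input at every time. Without the most-read interval, naive IP libraries had 9954 to 34980 CPM on Alu intervals (median 21608) and naive Input libraries 2784 to 8244 CPM (median 6096), so the ranges did not overlap. The means were 21012 ± 8298 CPM in naive IP and 5598 ± 1765 CPM in naive Input (SD, n = 7 each). In edgeR's quasi-likelihood fit of sums per element name, with the Rn45s plus Lars2 share of each library as a covariate, IP exceeded Input by 1.48 ± 0.21 on the log2 scale (SE) in naive libraries. At the 6 later times this log2 difference was 1.43, 1.36, 1.52, 1.83, 1.35 and 1.73, and each was called at an adjusted p of 0.05. With the most-read interval kept the differences at these times were 1.34, 1.31, 1.59, 1.77, 0.96 and 1.67, all called. Of the 225 element names tested, 50.2% were called and 46.7% were higher in IP among naive libraries, so a higher sum in IP was common to many repeat families. At the later times, in order, 45.8%, 41.8%, 52.9%, 61.3%, 48.4% and 48.9% of element names were higher in IP.

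The most-read interval behaved differently and weakened this contrast when it was kept. It had 16812 ± 16476 CPM in naive IP (4178 to 48379) and 10163 ± 9911 CPM in naive Input (1324 to 29447), with a log2 difference of -0.19 ± 0.53 (adjusted p = 0.821). The sum of all Alu intervals differed by 0.66 ± 0.25 in naive libraries (adjusted p = 0.0230). It lost that call without naive IP replicate 1 or naive Input replicate 1, 3 or 4 (0.50 to 0.56, adjusted p 0.0625 to 0.0872). The call was also lost without the 6 IP libraries above 50% rRNA share (0.38, adjusted p = 0.176). None of these 6 was naive, so the naive libraries compared stayed the same and the fit with the covariate changed. With the olfactory receptor level as a further covariate, the difference without the most-read interval was 0.40 in naive, 0.53 at 24 h and 0.29 at 72 h and was not called (adjusted p = 0.174, 0.0719 and 0.296), while the other 4 times kept their call.

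The rRNA share tracked the Alu level closely. Across libraries the log2 of the rRNA share and of the Alu CPM without the most-read interval had a Pearson r of 0.88 in IP (n = 39) and 0.93 in Input (n = 40), and within groups 0.84 and 0.93. The olfactory receptor sum gave r = 0.85 in IP and 0.70 in Input, and the nuclear noncoding RNAs 0.48 and 0.86. Both quantities of each pair come from 1 library and share its scaling, so these values are descriptions. Mean shares were 4.14 ± 2.99% at 7 d and 27.3 ± 11.7% in naive for IP, with n = 4 and 7 (SD). In Input they ran from 1.64% to 2.74% in the 4 libraries of 7 d and averaged 13.8 ± 7.21% in naive (SD, n = 7). At 7 d the share ran from 1.37% to 8.16% in IP, below the 9.86% to 40.2% of naive IP. In Input every 7 d library also lay below the 4.70% to 23.6% of naive Input. The share thus moved with time as well as with the Alu level. At 7 d a change with time and one with the share cannot be told apart. The part of Alu changes that goes with the share beyond the linear covariate was not tested.

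**Figure D2:**
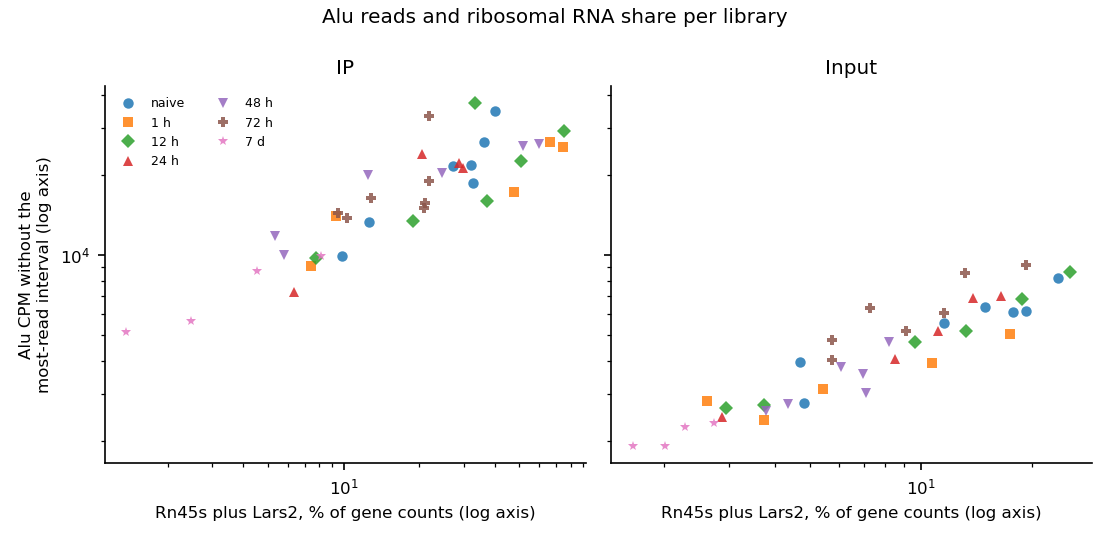
Each point is 1 library, with the percent of gene counts on Rn45s plus Lars2 on the x axis and the CPM of Alu intervals without the most-read one on the y axis (both log axes), and symbols for the 7 time groups. Alu level and rRNA share were high together across libraries in both fractions, and the 7 d libraries (stars) lie at the low end of both.

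Alu sums fell at 7 d in both fractions, where the rRNA share did not overlap with naive either. Without the most-read interval, the 7 d IP libraries had 5149, 5677, 8746 and 9923 CPM, against 9954 to 34980 CPM in naive IP. Every 7 d IP library lay below every naive one. The fitted log2 change was -0.90 ± 0.28 (adjusted p = 0.00727), and -1.13 ± 0.26 with the most-read interval kept (adjusted p = 6.46e-04). Without the 6 libraries above 50% rRNA share and without the most-read interval it was -0.48 and was not called (adjusted p = 0.229). None of these 6 was naive or of 7 d, so the libraries compared stayed the same and the fit with the covariate changed. Of the element names tested at this time, 50% were called and 45.2% fell.

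In Input the 7 d libraries had 1912, 1920, 2258 and 2337 CPM without the most-read interval, against 2784 to 8244 CPM in naive Input, again without overlap. The log2 change was -0.46 ± 0.15 (adjusted p = 0.0125; -0.37 without naive replicate 1, adjusted p = 0.0717), and -1.13 ± 0.26 with the most-read interval (adjusted p = 8.22e-04). Of the element names 48.8% were called, 43% lower. In bulk libraries, fewer cells of a type and less RNA per cell cannot be told apart.

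At 72 h Input went the other way. The 7 libraries had 4045 to 9216 CPM without the most-read interval (median 6050), against 2784 to 8244 CPM in naive Input (median 6096), so the raw levels overlapped widely. With the rRNA share in the fit the log2 change was 0.46 ± 0.12 (adjusted p = 0.00139), where 33.1% of element names were called and 31.4% were higher, and without the covariate it was 0.17 and was not called. With the most-read interval kept the change was 0.23 ± 0.19 and was not called either (adjusted p = 0.420). The macrophage markers Aif1, Csf1r, Cd68 and Tyrobp summed to 135.2 to 194.6 CPM in these libraries and 45.2 to 124 CPM in naive Input, and their part in the result was not tested.

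At the remaining times the calls of the sums were lost when the most-read interval was left out. All Alu intervals together fell in Input at 1 h, 12 h, 24 h and 48 h, with log2 changes of -1.03 ± 0.22, -0.76 ± 0.20, -0.80 ± 0.21 and -0.72 ± 0.22 (adjusted p 0.00581 to 0.0177), where 25.6%, 9.3%, 10.5% and 27.9% of element names were called and 25%, 7.56%, 2.33% and 19.8% were lower. In IP they fell at 1 h (-0.78 ± 0.23, adjusted p = 0.0187), where 7.62% were called, all of them lower. The 1 h call in IP was lost without naive replicate 1 or 6 or 1 h replicate 2 or 3, and the 12 h call in Input without naive replicate 5 or 12 h replicate 3 or 5 (adjusted p up to 0.0955 and 0.0927). Leaving it out, none was called, with log2 changes of -0.23, -0.08, 0.10 and -0.08 in Input and -0.52 in IP. The most-read interval itself had 394 to 2562 CPM in the 5 Input libraries at 1 h and 58.0 to 3409 CPM in the 5 at 24 h, against 1324 to 29447 CPM in naive Input. The log2 changes were -2.30 ± 0.65 and -2.22 ± 0.62 (adjusted p = 0.0143 and 0.0111), and -2.29 ± 0.77 at 7 d in Input and -2.08 ± 0.55 at 7 d in IP (adjusted p = 0.0258 and 0.00569). It was not called at 12 h or 48 h in Input (-1.39 and -1.52, adjusted p = 0.119 and 0.0676) or at 1 h in IP (-1.27, adjusted p = 0.0975).

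The response to crush was not shown to differ between the fractions. With the most-read interval left out, the 6 contrasts of the IP response with the Input response gave a joint adjusted p of 0.818, and 0.162 with it. Without the 6 libraries above 50% rRNA share, and with the most-read interval kept, the joint adjusted p was 0.0218, and the IP response exceeded the Input response by 1.33 at 48 h and by 1.24 at 7 d on the log2 scale (adjusted p = 0.00951 and 0.0203).

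Interval by interval, few Alu intervals were called in IP in the first 3 days. At least 10 reads in about as many libraries as the smallest group were needed to be tested (edgeR's filterByExpr), which kept 10958 Alu intervals in IP and 2219 in Input, so every count below concerns these and not all 54592. In IP 10 rose and 92 fell at 1 h, 0.931% of those tested, beside 5.21% of all repeat intervals (0.173% higher, 5.03% lower). At 12 h 13 rose and 24 fell (0.338%, against 1.61% of all intervals, 0.272% higher and 1.34% lower), and at 24 h 64 rose and 12 fell (0.694%, against 2.03%, with 1.75% higher and 0.283% lower). At 48 h 117 rose and 20 fell (1.25%, against 4.76%, with 3.43% higher and 1.33% lower), and at 72 h 119 rose and 13 fell (1.2%, against 5.24%, with 4.55% higher and 0.691% lower). Of these risers 78 rose at both 48 h and 72 h. Each share was below that of all repeat intervals tested. A low share of calls does not show that few intervals changed. At 1 h the median log2 change was -0.59 over the Alu intervals and -0.62 over all intervals. In simulated IP counts at 72 h with a dispersion of 0.5, 0 of 60 2-fold and 7 of 61 4-fold changes were recovered. The early counts rested on few libraries. At 1 h 4 intervals were called without the 6 IP libraries above 50% rRNA share and 2 without the covariate, and leaving out replicate 1, 2, 3 or 5 of the 1 h group or naive replicate 7 gave 8, 48, 35, 53 or 66. At 12 h 15 were called without naive replicate 1 or 7, and at 24 h 122, 50 or 41 without replicate 1, 2 or 4 of that group.

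At 7 d in IP 1827 Alu intervals fell and 62 rose, or 17.2% of those tested. Of all intervals 21.5% were called, 18.8% lower and 2.74% higher, so the Alu share lay below the background also here. The median log2 change was -1.33 over the Alu intervals and -0.74 over all intervals. Without the 6 libraries above 50% rRNA share, none of them naive or of 7 d, 766 fell and 64 rose. Without replicate 4 of the 7 d group 1183 fell and 57 rose. B2 intervals were more even at this time, with 1038 that rose and 825 that fell of 17096, and L1 intervals (long interspersed elements) had 15 and 467 of 1959. Over the 6 times 2123 Alu intervals were called in IP at least once, 194 of which only rose, 1923 only fell and 6 did both.

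**Figure D3:**
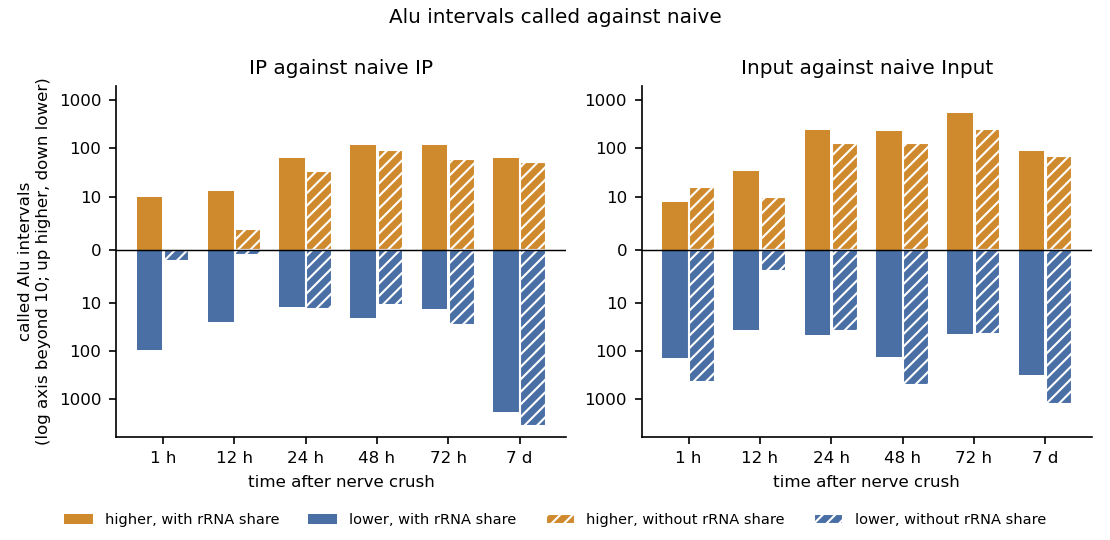
Number of Alu intervals called higher (up) and lower (down) at each time against naive in IP and Input, with the rRNA share as a covariate (plain bars) and without it (hatched bars); the y axis is logarithmic beyond 10. The tallest bars point down at 7 d in both fractions and up at 72 h in Input, and without the covariate more intervals fell at 1 h, 48 h and 7 d in Input.

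In Input, with the covariate, more intervals fell than rose at 1 h, 12 h and 7 d and more rose at 24 h, 48 h and 72 h. At 1 h 136 of the 2219 fell and 9 rose (6.53%, against 21.1% of all intervals, 0.541% higher and 20.6% lower), and at 12 h 36 fell and 34 rose (3.15%, against 10.2%, with 1.23% higher and 9.01% lower). At 24 h 237 rose and 45 fell (12.7%, against 16.8%, with 11.9% higher and 4.95% lower), and at 48 h 230 rose and 133 fell (16.4%, against 24.1%, with 12.7% higher and 11.4% lower). At 72 h 542 rose and 44 fell, 26.4% of those tested, where 40% of all intervals were called, 36.4% higher and 3.59% lower. The B2 family stood far above both at 72 h, with 13518 rising and 33 falling of 18078 (75%). At 7 d 317 Alu intervals fell and 90 rose (18.3%, against 25.4% of all intervals, 6.28% higher and 19.1% lower). Leaving out 1 library moved some of these counts. At 1 h 47, 93 or 91 were called without naive replicate 1, 5 or 6 and 48 or 66 without replicate 3 or 4 of that group. At 12 h 106, 44 or 42 were called without naive replicate 3, 5 or 6, and at 7 d 253 without naive replicate 1.

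The median log2 change of the tested Alu intervals in Input was 0.44 at 72 h and -0.63 at 7 d, against 0.41 and -0.38 over all intervals. Over the 6 times 977 Alu intervals of 2219 were called at least once. Of these 516 only rose, 373 only fell and 88 did both, and 214 rose at both 48 h and 72 h. In IP without the covariate 53 rose and 3529 fell at 7 d, and 60 rose and 28 fell at 72 h. In Input without it 70 rose and 1256 fell at 7 d, 254 rose and 44 fell at 72 h, 131 rose and 495 fell at 48 h, and 16 rose and 442 fell at 1 h. The majority at 48 h in Input thus changed sides with the covariate.

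At baseline many more Alu intervals were called between the fractions. Of 17475 Alu intervals tested, 6621 were higher in IP of naive mice and 69 lower, compared with their Input, or 38.3%. Of all 85481 intervals 25% were called, 20.6% higher and 4.33% lower in IP. The median log2 difference was 2.19 over the Alu intervals, -0.09 over B2 intervals (15.3% called) and 2.89 over L1 intervals (58.2% called). An interval could enter this test through its IP counts alone. Filtered within 1 fraction, 10958 Alu intervals passed in IP and 2219 in Input. For B2 these numbers were 17096 and 18078, and for L1 1959 and 365. The medians, the shares called and the order of the families thus follow in part from the filter. Alu intervals within genes away from the 3' end led this, with 4368 of 9946 higher in IP and a median of 2.29, while in the last 2 kb 81 of 592 were higher and the median was 0.50.

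Set against B2 reads of the same library, a ratio that needs no library size, Alu was again higher in IP. With the most-read interval left out, naive IP libraries had 0.205 to 0.575 Alu reads per read on intervals whose name holds B2, and naive Input libraries 0.0677 to 0.0965. The log2 difference of the ratio was 2.00 (exact 2-sided permutation test, adjusted p = 0.00204, n = 7 each). At 7 d the ratio was 0.138 to 0.164 in the 4 IP libraries and 0.0520 to 0.0850 in the 4 Input libraries, a log2 difference of 1.18 (exact permutation test, adjusted p = 0.0286, the smallest 4 against 4 allows). At all 7 times the ranges of IP and Input did not overlap.

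Over time the Alu to B2 ratio moved in both directions in Input. Leaving out the most-read interval, it was 0.0897 to 0.160 at 1 h and 0.0957 to 0.144 at 12 h, against 0.0677 to 0.0965 in naive Input. These are log2 changes of 0.57 and 0.50 (exact permutation tests, adjusted p = 0.0242 and 0.0140 over 12 comparisons). With the most-read interval kept they were -0.34 and -0.17 and not called (exact permutation tests, adjusted p = 0.419 and 0.643). B2 reads averaged 28205 ± 11354 CPM at 1 h (n = 5) and 41928 ± 17604 CPM at 12 h (n = 6), against 65621 ± 18894 CPM in naive Input (SD, n = 7). It was 0.0395 to 0.0588 at 72 h, below every naive library, a log2 change of -0.84 (exact permutation test, adjusted p = 0.00699). At 24 h and 48 h the changes were -0.36 and -0.48 (exact permutation tests, adjusted p = 0.0404 and 0.0140). The 72 h fall went with more B2 reads, 130254 ± 28206 CPM at 72 h and 65621 ± 18894 CPM in naive Input (SD, n = 7 each). In IP the change was called at 7 d, where the ratio fell by 1.13 on the log2 scale (exact permutation test, adjusted p = 0.0182). At 24 h, 48 h and 72 h in IP it was -0.29, -0.49 and -0.67 and not called (exact permutation tests, adjusted p 0.0649 to 0.352).

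Relative to all other repeat intervals no change was called. Alu reads per other interval read gave a smallest unadjusted p of 0.00505, at 24 h in Input (log2 change -0.88, exact permutation test, adjusted p = 0.0606), and the adjusted p of the 11 other comparisons ran from 0.180 to 0.649. With the most-read interval and the rRNA-named intervals left out, the log2 changes lay between -0.37 and 0.23 and none passed.

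Where in genes the Alu reads fell differed between fractions and changed by 7 d. In naive IP 4.89% to 14.6% of the Alu reads without the most-read interval lay in the last 2 kb of gene spans of known strand, and in naive Input 20.1% to 31.3%. The means were 8.75 ± 3.36% and 24.5 ± 3.68% (SD, n = 7 each), a difference of -15.8 percentage points (exact permutation test, adjusted p = 0.00554). IP was lower at all 6 later times too, with no overlap of ranges, with differences of -12.3 to -22.4 points. Each was called except at 7 d, where 4 libraries a group gave an adjusted p of 0.0598 (exact permutation test).

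At 7 d the share near the 3' end was higher in both fractions. It was 13.8% to 18.8% in the 4 IP libraries, against 4.89% to 14.6% in naive IP. The groups overlapped slightly, and the difference was 6.74 points (exact permutation test, adjusted p = 0.0432). In Input it was 36.4% to 38.9% at 7 d, above every naive library, a difference of 13.4 points (exact permutation test, adjusted p = 0.0230). The share outside gene spans moved at 72 h in Input, to 25.6% to 30.3%, against at most 24.9% in naive Input (median 22.3%; 5.43 points, exact permutation test, adjusted p = 0.0111), and at 7 d to 13.5% to 16.3% (-7.38 points, exact permutation test, adjusted p = 0.0384). In IP no change of that share was called.

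**Figure D4:**
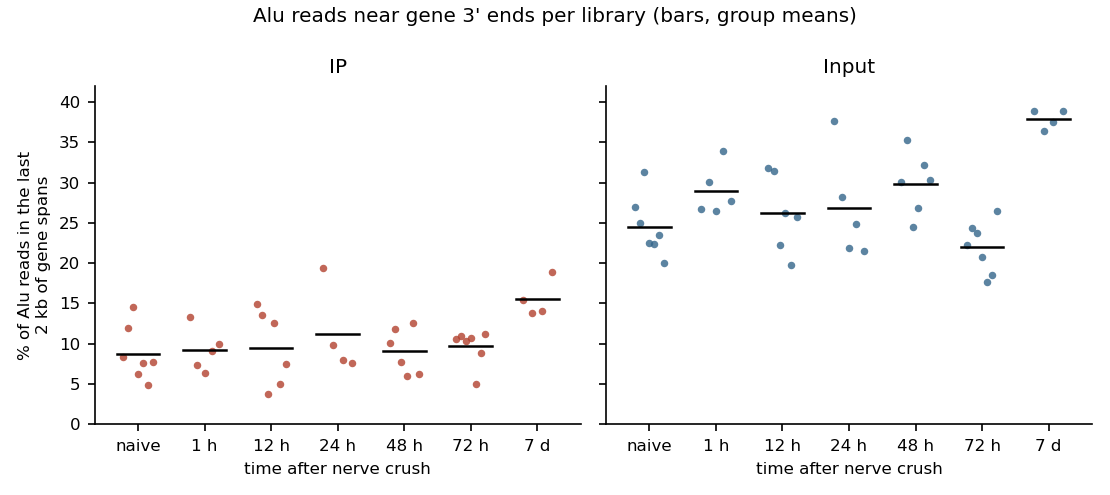
Percent of Alu reads, without the most-read interval, that lie in the last 2 kb of annotated gene spans of known strand, for each library of IP and Input at each time. Bars are group means. IP libraries average 8.75% to 15.5% by group and Input libraries 24.5% in naive and 37.9% at 7 d. The highest mean of each fraction is at 7 d and the lowest Input mean is at 72 h.

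The interval calls also varied with position. Of all repeat intervals tested, 36.4% rose and 3.59% fell at 72 h in Input, and 2.74% rose and 18.8% fell at 7 d in IP. Of the Alu intervals tested, 24.4% rose at 72 h in Input and 16.7% fell at 7 d in IP. At 72 h in Input 366 tested intervals lay outside gene spans and not within 5 kb downstream of a gene of known strand. Of these 173 rose and 1 fell (median log2 change 0.99). In the body of genes 215 of 1008 rose and 13 fell, while in the last 2 kb 43 of 364 rose and 18 fell (median 0.09). At 7 d in IP 1264 of the 6551 in the body of genes fell and 19 rose (median -1.41). In the last 2 kb 51 of 458 fell and 4 rose (median -0.61).

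Most falling Alu intervals of IP at 7 d lay in hosts that were not called themselves. At that time 1526 falling intervals had a host gene that was tested, and the host fell in 229 cases (15.0%) and rose in 83, where 5.73% of all genes fell and 6.71% rose. Over all 7820 tested intervals with a tested host, the median log2 change was -1.39 for the intervals and -0.08 for the hosts. At 72 h in Input 71 of 247 rising intervals had a host that rose (28.7%) and 26 a host that fell, while 29 of 36 falling intervals had a host that fell (80.6%), where 14.3% of all genes rose and 16.3% fell. Between naive IP and naive Input 1523 of 5021 intervals higher in IP lay in hosts higher in IP (30.3%), and 708 in hosts lower in IP, where 21.6% of all genes were higher and 16.5% lower. Across intervals the Spearman correlation with the host's change was 0.07 to 0.34 in the 13 comparisons. Intervals share hosts and libraries, and a read may have been counted for both an interval and its host, so this is a description.

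In Input the abundant intervals near 3' ends and their hosts rose together at several times, where the same reads may have been counted for both. The Cd59a interval had 28.7 to 36.4 CPM in the 4 Input libraries at 7 d and 16.9 to 43.1 CPM in naive Input, overlapping ranges, and in the fit with the rRNA share it rose by 0.90 ± 0.19 (log2; adjusted p = 2.21e-04) while Cd59a rose by 1.09 ± 0.13. At 24 h the Lix1 interval had 34.6 to 56.0 CPM in Input, above all naive Input libraries (median 30.4, highest 34.3 CPM). It rose by 0.59 ± 0.12 (adjusted p = 2.30e-04) and Lix1 by 0.61 ± 0.08. The Tmem234 and Rangap1 intervals rose at 24 h too, by 0.49 ± 0.14 and 0.45 ± 0.13, with hosts that rose by 0.56 and 0.34. In naive libraries Tmem234 was lower in IP at the interval (-0.88 ± 0.22) and in the gene (-0.99 ± 0.19), as was Rangap1 (-0.82 ± 0.24 and -0.76 ± 0.17). At 7 d in IP the hosts Cd59a, Tmem234, Lix1 and Rangap1 rose by 1.52, 1.07, 0.73 and 1.34, while their intervals changed by 0.47, 0.43, -0.38 and 0.45 and were not called.

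Ankrd6 and Kif5b differed from the abundant intervals they hold. The Ankrd6 interval had 36.3 to 107 CPM in naive IP and 2.99 to 11.3 CPM in naive Input, without overlap (66.6 ± 23.4 and 7.09 ± 2.52 CPM, SD, n = 7 each). The log2 difference was 3.04 ± 0.32 (adjusted p = 4.96e-12), while Ankrd6 itself differed by -0.42 ± 0.23 (adjusted p = 0.142). At 72 h in Input this interval rose by 0.71 ± 0.25 (adjusted p = 0.0198) and Ankrd6 fell by 0.58 ± 0.17 (adjusted p = 0.00569). The interval near Gal3st2 gave nearly the same values, with 59.6 ± 20.8 CPM in naive IP and 6.36 ± 2.27 CPM in naive Input, and a log2 difference of 3.04 ± 0.32. Both intervals ran in parallel at the other times too, as at 7 d in IP (Ankrd6 60.4 ± 54.7 and Gal3st2 54.5 ± 49.5 CPM, SD, n = 4). They may share reads, so not every read on the Ankrd6 interval need come from that gene, which was not tested. The Kif5b interval had 7.86 to 28.8 CPM at 7 d in IP, below the 29.9 to 49.7 CPM of naive IP. It fell by 1.34 ± 0.38 (adjusted p = 0.00782), whereas Kif5b changed by -0.09 (adjusted p = 0.851).

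Among called intervals with at least 1 CPM whose libraries of a time all lay on 1 side of the naive mean, the text takes its examples from the 3 largest changes each way at each time. Those with few or no reads in 1 of the compared groups passed the filter through other groups. Large changes, levels near 0 and ranges that do not overlap thus follow in part from this choice. The interval at chr3:86961791-86961819, 24767 bp from Cd1d2, a CD1 family antigen presentation gene, rose in both fractions. In IP it had 6.62 to 28.1 CPM at 48 h and 7.42 to 22.9 CPM at 72 h, against 0 to 1.13 CPM in naive IP. These are log2 changes of 5.56 ± 0.49 and 5.87 ± 0.50 (adjusted p = 3.33e-13 and 5.24e-14). In Input it had 1.17 to 4.77 CPM at 48 h, 8.22 to 25.7 CPM at 72 h and 1.01 to 1.64 CPM at 7 d, against 0 to 0.229 CPM in naive Input. The log2 changes were 5.90 ± 0.49, 7.93 ± 0.41 and 5.49 ± 0.58 (adjusted p 2.63e-23 to 1.30e-10). No library of these times overlapped with naive in either fraction.

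A second interval, at chr9:21857806-21857831, 5088 bp from Dock6, a guanine nucleotide exchange factor gene, had no read in any naive IP library. It had 0.268 to 3.55 CPM at 24 h, up to 4.94 CPM at 48 h and 0.669 to 1.96 CPM at 72 h in IP. Pooled over the group and set against a floor of 3 reads in naive IP, these levels were at least 22.8-fold, 50.2-fold and 20.8-fold higher. Floors and count intervals cover counting error of the pooled reads only and leave out the spread among libraries. The reads carry no molecular identifiers, so repeated copies of 1 molecule were not told apart. The interval at chr1:89870127-89870152 in Agap1, an Arf GTPase activating protein gene, had 1 read in naive IP and 135 at 48 h, a pooled ratio of 126 (95% count interval 22.3 to 5020). The ratio was 99.7 (17.6 to 3967) at 72 h and 48.2 (8.35 to 1931) at 7 d. Agap1 itself changed by 0.13, -0.05 and -0.57 at these times and was not called.

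**Figure D5:**
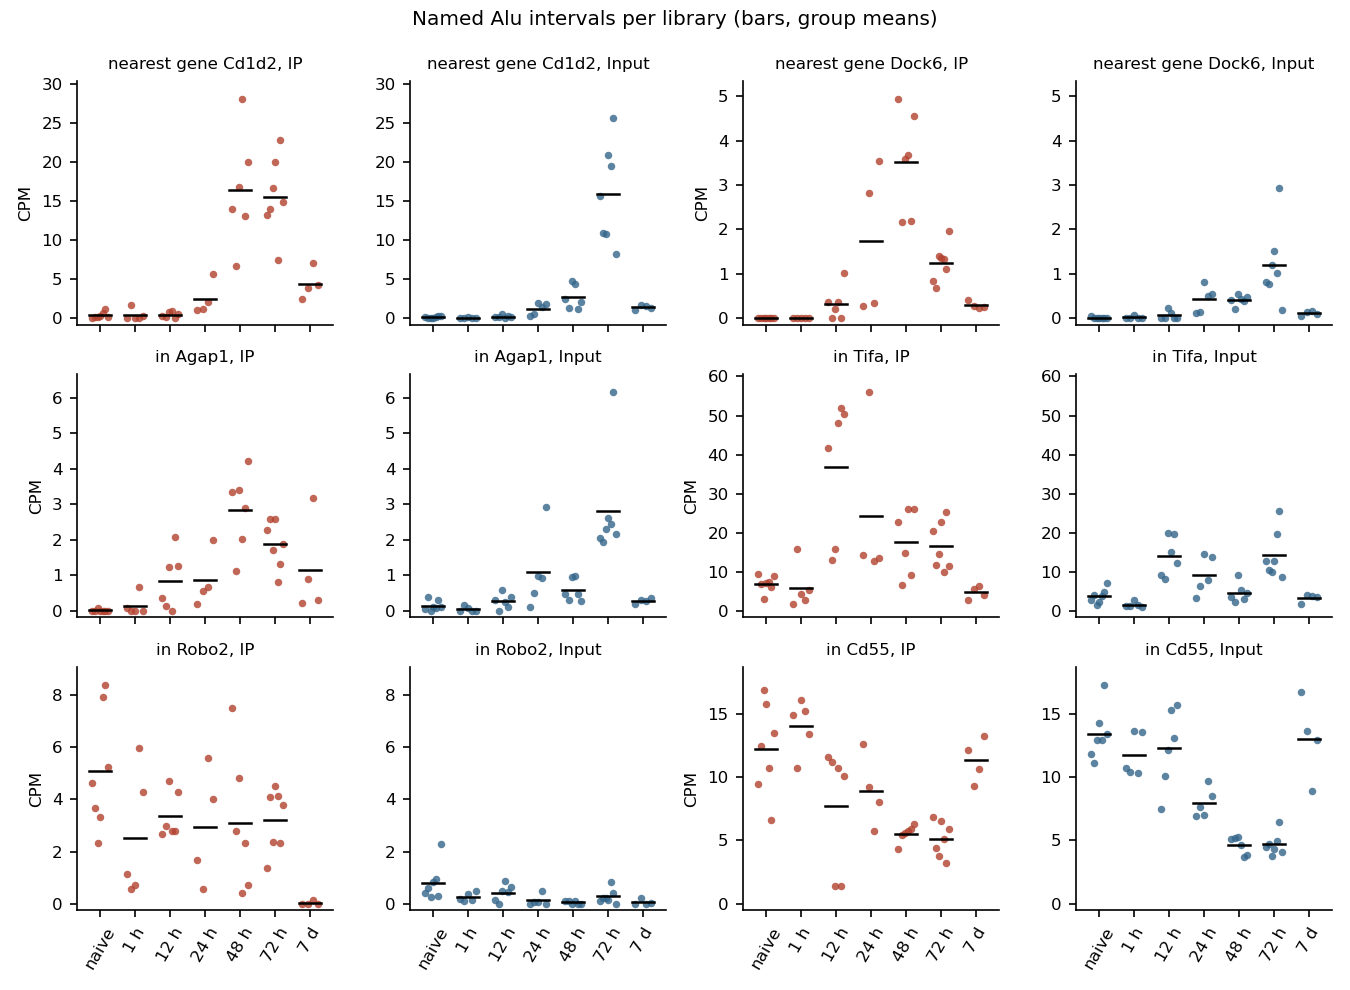
CPM of 6 named Alu intervals in each library of IP and Input at each time; points are libraries, bars are group means, and each panel has its own linear y axis. The intervals near Cd1d2 and Dock6 and in Agap1 are near 0 in naive libraries and have their highest means at 48 h or 72 h, the Tifa interval has its highest mean in IP at 12 h, the Robo2 interval is near 0 at 7 d in IP, and the Cd55 interval is lowest at 48 h and 72 h.

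The Tifa interval (chr3:127798255-127798280), 114 bp from the 3' end of an adaptor gene of NF-kappa B signalling, rose with its host at 12 h. Here too the same reads may have been counted for both. It had 13.1 to 51.9 CPM in IP at 12 h, against 2.91 to 9.43 CPM in naive IP, and 8.26 to 20.0 CPM in Input at 12 h, against 1.54 to 7.21 CPM in naive Input. Neither pair of ranges overlapped. The log2 changes were 2.06 ± 0.32 and 2.05 ± 0.23, and Tifa rose by 2.29 in each fraction. The Cd55 interval (chr1:130439567-130439592), in a gene for another complement regulator, fell with its host at 72 h in Input, to 3.80 to 6.47 CPM, against 11.1 to 17.3 CPM in naive Input. It changed by -1.46 ± 0.16 and Cd55 by -1.45 ± 0.10.

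The largest falls at 7 d in IP were within Robo2, Zfp644 and Asic2. In Robo2, an axon guidance receptor gene, the interval at chr16:75395730-75395755 had 0, 0, 0 and 0.151 CPM at 7 d and 2.33 to 8.39 CPM in naive IP. With 2 reads at 7 d and 225 in naive IP the pooled ratio was 0.00649 (95% count interval 7.81e-04 to 0.0237), and Robo2 changed by -0.77 (adjusted p = 0.0519). The intervals in Asic2, an acid-sensing channel gene, and in Zfp644 had no read at 7 d and 60 and 74 in naive IP, at least 27.4-fold and 33.8-fold lower, while Asic2 and Zfp644 changed by -0.24 and 0.07 and were not called. The Zfp644 interval had 0 to 6.54 CPM over the 7 naive libraries (median 0.525), and the Asic2 interval 0.733 to 1.92 CPM.

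The named falling intervals of 1 h, 12 h, 24 h and 48 h in IP had 0 to 0.220 CPM on average at that time. For 9 of these 12 at least 1 naive library also had no read, and for 3 of the 9 the naive median was 0. Among the 3 named risers of IP at 1 h the interval in Gnl3l had 3.50 to 16.7 CPM at 1 h and 0.577 to 4.73 CPM in naive IP, ranges that overlap, with a log2 change of 2.23 ± 0.43 (host 0.93 ± 0.25). The Ugdh interval at 12 h had 3.36 to 5.74 CPM, against 0.227 to 2.89 CPM in naive IP, without overlap (1.78 ± 0.43, host 1.07 ± 0.21).

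Several of the risers named in Input had few or no reads in naive libraries. They passed the filter through groups after crush and were named for their large change, so this near absence follows from the choice. The interval at chr5:129014410-129014435, 5721 bp from Ran, had no read in naive Input and 0.121 to 1.89 CPM at 24 h and 1.09 to 3.13 CPM at 72 h, at least 28.0-fold and 52.8-fold higher. The Epm2a interval (chr10:11419073-11419108) had no read in naive Input and 1.36 to 1.99 CPM at 72 h, at least 47.8-fold higher, while Epm2a changed by 0.03 (adjusted p = 0.976). The Ift122 interval (chr6:115917423-115917448), in a gene of transport in cilia, had 3 reads in naive Input, 110 at 24 h and 189 at 48 h. The pooled ratios were 41.0 (13.7 to 202) and 51.3 (17.3 to 251), whereas Ift122 changed by 0.00 at 24 h and by -0.70 at 48 h.

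Other Input intervals rose or fell late. The interval 2911 bp from Wbp2nl (chr15:82317558-82317583) had 1.91 to 4.09 CPM at 7 d, against 0 to 0.729 CPM in naive Input, a log2 change of 3.19 ± 0.42, and had already risen by 1.91 ± 0.38 at 12 h. The Cse1l interval, in a nuclear export receptor gene, had 0.857 to 2.53 CPM at 7 d and 0 to 0.497 CPM in naive Input (3.72 ± 0.47, host 0.77 ± 0.18). The interval in Polr3b, a gene for a core subunit of RNA polymerase III (chr10:84647991-84648016), fell at 12 h and 7 d. It had 2 reads at 7 d and 91 in naive Input, a ratio of 0.0199 (0.00238 to 0.0741), while Polr3b itself changed by 0.24 (adjusted p = 0.167). The Scn2b interval, 1341 bp from the 3' end of a sodium channel beta subunit gene, fell at 72 h by 1.64 ± 0.36 with its host (-0.79 ± 0.15).

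Between naive fractions, the largest differences were in intervals without any read in naive Input. These passed the filter through other libraries, so the absence follows in part from how they were chosen. The Sfi1 interval (chr11:3172680-3172705) had 0.183 to 13.6 CPM in naive IP, at least 77.5-fold higher, and its host was higher in IP by 2.22 ± 0.26. The Tasor interval (chr14:27458653-27458678), in a gene for a subunit of the HUSH silencing complex, had 1.19 to 3.17 CPM in naive IP, at least 51.7-fold higher. Intervals in Gm21154 and Gm9597 had identical counts, at least 46.5-fold higher in IP, and may share reads. Of the intervals lower in IP, that in Rpl7l1 had 0 to 1.05 CPM in naive IP and 1.33 to 3.03 CPM in naive Input (-2.01 ± 0.44, host -1.30 ± 0.19).

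The promoter interval with the most reads, at Eef2k, upstream of the gene for eukaryotic elongation factor-2 kinase, had 0.224 to 0.607 CPM in Input at 7 d, below the 0.978 to 6.46 CPM of naive Input, and fell by 1.74 ± 0.50 (log2; adjusted p = 0.00841). At 72 h it had 2.72 to 9.89 CPM in Input, overlapping with naive, and rose by 1.10 ± 0.32 (adjusted p = 0.00466). In naive libraries it was higher in IP, with 6.34 CPM or more and a median of 10.9 CPM, than in Input (median 3.64 CPM; 0.97 ± 0.35, adjusted p = 0.0307). Those at Gm46183 and Gm52878 exceeded naive Input in naive IP by 2.65 ± 0.77 and 2.40 ± 0.89 (log2), and the one at Gm14051 was also called higher (adjusted p = 0.00843), while those at Lipe and Gm20045 were called in no comparison in which they were tested.

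Genes of the B1 pathway were read from 4 lists. Srp9 and Srp14, whose proteins bind the Alu domain of 7SL RNA, had 101 ± 15.6 and 222 ± 44.1 CPM at 7 d in Input (n = 4), against 276 ± 34.4 and 534 ± 87.2 CPM in naive Input (SD, n = 7). They fell by 1.11 ± 0.16 and by 1.10 ± 0.16 on the log2 scale (adjusted p = 5.77e-08 and 2.02e-07). Of 8 tested genes of the signal recognition particle and its receptor 4 fell and 2 rose at 7 d in Input, where 47.3% of all genes were called (23% higher, 24.2% lower). The receptor subunits Srprb and Srpr rose, by 1.30 ± 0.16 and 0.83 ± 0.12. In IP at 7 d 2 of 8 rose (Srpr 0.84 ± 0.22, Srp72 0.72 ± 0.25) and none fell, beside 12.4% of all genes called (6.71% higher, 5.73% lower).

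Of 24 genes of the RNA polymerase III machinery 10 fell and 2 rose at 7 d in Input, a share of the list near the 47.3% of all genes called there. Polr1d, a subunit shared with polymerase I, changed by -1.28 ± 0.13, Polr3gl by -0.95 ± 0.17 and Maf1, the repressor of polymerase III, by -0.64 ± 0.11, while Gtf3c1, a subunit of transcription factor IIIC, rose by 0.74 ± 0.15. In IP at 7 d Polr1d fell (-0.82 ± 0.24) and the other 23 were not called. At 72 h in Input, with 30.6% of all genes called (14.3% higher, 16.3% lower), 3 rose and 1 fell, among them Polr3g with -0.61 ± 0.07.

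Among genes for binding, editing or sensing of double-stranded RNA, which inverted SINE pairs can form, Adarb1, an adenosine deaminase that edits RNA, rose in both fractions. It changed by 0.89 ± 0.23 at 48 h and 0.86 ± 0.23 at 72 h in IP, where it was the 1 list member of 14 called and 3.09% and 2.77% of all genes were called. In Input it rose by 0.46, 0.75, 0.98 and 0.62 at 24 h, 48 h, 72 h and 7 d (adjusted p 1.22e-12 to 3.28e-04). Adar itself was not called at any time. Of 12 genes linked to SINE silencing 4 fell (Dnmt1, Adnp, Chd4, Atrx, -1.09 to -0.68) and 2 rose (Trim28 0.91 ± 0.24, Morc2a 0.99 ± 0.34) at 7 d in IP, beside 12.4% of all genes called. At 7 d in Input 5 fell, Mphosph8 by 0.95 ± 0.18 among them, and 2 rose, beside 47.3% of all genes called. Between naive IP and naive Input, with 38.1% of all genes called (21.6% higher, 16.5% lower), Srp9, Srp14, Srp19, Srp68 and Srp72 were lower in IP (-1.18 to -0.46), and no member of the signal recognition particle list was higher.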

How the data were processed

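RNA was sequenced from IP and Input fractions of mouse dorsal root ganglia with 75 bp paired reads. Per the submitters' processing notes, bcl2fastq 2.17, STAR and HTSeq were used with GRCm38 and mm10. The authors deposited raw counts per gene and per repeat interval. The sources used here do not state how intervals were chosen, strand use or the treatment of multiply mapped reads. Positions are printed as deposited, except beside sequences. Alu intervals were taken by element name, and the members and gene lists were chosen with earlier results of these data known.

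Counts of the whole interval table were scaled to gene-table totals with TMM factors. They were fitted by edgeR 4.0.16 (glmQLFit, glmQLFTest, R 4.3.3) on the 7 groups of each fraction, or 14 groups of both, with the Rn45s plus Lars2 share as covariate. P-values were Benjamini-Hochberg adjusted over all intervals, element names or genes tested, and calls use 0.05. Ratios and shares were compared by 2-sided exact permutation tests (scipy 1.17.1). The text names, per comparison, up to 3 intervals each way (4 between naive fractions) with the largest called change, a mean of at least 1 CPM in either group and every library of the first-named group on 1 side of the other group's mean, plus the 8 most abundant intervals. Alternatives were DESeq2 1.42.0, RLE factors, no filter, no covariate, a replicate block and left-out libraries.

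Of 192 library pairs within groups 0 were identical. IP counts at 72 h (53107 intervals) were also simulated, with a single dispersion of 0.5 and no effect of the rRNA share. Of these 0 of 60 intervals changed 2-fold, 7 of 61 changed 4-fold and 34 of 62 changed 8-fold were recovered, with 1 false call. Recovery at the spread of the measured counts was not tested. Left out were 27 gene symbols turned into dates (0.0346% to 0.214% of gene counts).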

Additional observations from a re-analysis of the deposited data

Results flagged for a closer look

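Of 56 groups of values checked for a single distant library, 6 held one, and chance gives about 1 in 20. Replicate 1 of IP at 24 h had 10253 CPM on all Alu intervals, against 31798 to 35496 CPM in the other 3 libraries, and 7281 CPM without the most-read interval, against 21367 to 24092 CPM. Replicate 5 of IP at 72 h had 33522 CPM without the most-read interval, against 13795 to 19097 CPM in the other 6, and 0.459 Alu reads per B2-named read, against 0.144 to 0.211. Replicate 3 of IP at 12 h had 0.786 Alu reads per B2-named read, against 0.314 to 0.470 in the other 5. The most-read interval had 2562 CPM in replicate 3 of Input at 1 h, against 394 to 688 CPM in the other 4.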

How the results depend on the processing

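Counts of called Alu intervals moved most with the covariate and the filter. In the order 1 h, 12 h, 24 h and 7 d, IP had 2, 5, 47 and 3582 calls without the rRNA covariate, against 102, 37, 76 and 1889 with it. Input had 458, 14, 171, 626, 298 and 1326 from 1 h to 7 d, against 145, 70, 282, 363, 586 and 407. With no filter there were 210, 74, 175, 209 and 346 calls in IP from 1 h to 72 h, 266, 133, 522, 795 and 1972 in Input, and 10517 between naive IP and naive Input (6690 with the filter). DESeq2 gave 158, 64 and 151 in IP at 1 h, 12 h and 24 h, and RLE factors 176 at 1 h. Without the 6 libraries above 50% rRNA share there were 4, 8 and 830 at 1 h, 12 h and 7 d in IP and 4254 between naive fractions. With the replicate block there were 43 and 16 at 1 h and 12 h in IP, and the IP sum at 1 h was -0.73 (adjusted p = 0.0623). The block changed no other call of a sum or count by over 1.5 times. Same-numbered IP and Input libraries deviated together (r over 0.1) in 22 of 39 pairs (median r 0.12), against 28 of 192 pairs with different numbers (median r -0.03). Same-numbered libraries were thus more alike as a set, and some may be pairs. Since not every pair passed, numbers were not taken as pairs, and all tests of IP against Input treated libraries as unpaired. The replicate block, with a term for each number across times, did not model pairs within a time.

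Without the covariate, log2 changes of the Alu sum were -0.20 at 1 h in IP (not called), 0.20 and -0.36 at 12 h and 72 h in IP, -1.03, -1.27 and -0.34 at 12 h, 24 h and 72 h in Input (not called), and -0.022 for the response difference at 72 h. Without the most-read interval they were 0.028 and -0.20 at 12 h and 72 h in IP, -0.69 and -0.71 at 1 h and 48 h in Input (both called), -0.13 and 0.17 at 24 h and 72 h (not called), and 0.52, 0.16, -0.038 and -0.10 for the response differences at 1 h, 12 h, 24 h and 7 d. Of the calls of listed genes against naive, 49 were kept and 21 lost without the covariate, and Srp68 at 7 d in Input turned to 0.10. With the replicate block 63 were kept and 8 lost, and without the libraries above 50% rRNA share 62 and 9. For named intervals 66 calls were kept and 12 lost without the covariate. The numbers were 68 and 10 with the block, 62 and 15 without those libraries, and 75 and 3 with RLE factors. With the olfactory receptor covariate, sums without the most-read interval changed by 0.041, 0.18 and 0.16 at 12 h, 24 h and 48 h in IP. IP minus Input was 0.40, 0.53 and 0.29 in naive, at 24 h and at 72 h (not called), and the response differences at 1 h and 12 h were 0.52 and 0.32.

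Without the libraries above 50% rRNA share, the sum changed by -0.44 and 0.0077 at 1 h and 48 h in IP, naive IP minus Input was 0.38, and the response differences at 48 h and 7 d were 1.33 and 1.24 (joint F = 3.79, called). Without the most-read interval as well, 24 h, 48 h and 7 d in IP gave 0.084, 0.25 and -0.48 (none called), the response differences at 1 h, 12 h and 72 h 0.24, 0.11 and 0.030, and Alu per other interval read at 48 h in IP, with that interval kept, 0.16. Per B2-named read, with all libraries and the most-read interval kept, log2 changes against naive were 0.50, 0.56, -0.73 and -1.66 at 1 h, 12 h, 72 h and 7 d in IP. Of these only the one at 7 d was called. In Input they were -1.29, -1.32, -1.14 and -1.29 from 24 h to 7 d, all called. Without the most-read and rRNA-named intervals, the log2 changes of Alu per other interval read were 0.059, -0.023 and -0.37 at 12 h, 72 h and 7 d in IP. In Input they were 0.15, 0.23 and 0.035 at 1 h, 12 h and 24 h, and none of these was called.

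Leaving out 1 library at a time, calls ranged over 8 to 104, 15 to 35, 41 to 122 and 1240 to 1994 at 1 h, 12 h, 24 h and 7 d in IP, and over 47 to 206, 42 to 106 and 253 to 441 at 1 h, 12 h and 7 d in Input. Sums ranged over -0.98 to -0.61 and -0.35 to 0.022 at 1 h and 24 h in IP, -0.87 to -0.62 at 12 h in Input and 0.50 to 0.93 for naive IP minus Input. Sums lacking the most-read interval ranged over -0.20 to 0.19 and -0.091 to 0.19 at 24 h and 72 h in IP, and -0.16 to 0.0037 and -0.53 to -0.37 at 48 h and 7 d in Input, and Alu per other interval read at 72 h in Input over -0.24 to 0.0053. The cause of these shifts was not tested. The median interval had 48 reads over the 79 libraries, which limits what could be called for single intervals of low count.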
